A study of Mus musculus with 15 samples.

Results

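The circadian clock genes described here are Nr1d1, Nr1d2, Arntl, Clock, Per1, Per2, Per3, Cry1, Cry2 and Dbp, 10 of the 24690 entries in each count table. They were taken by gene symbol, and all 10 were found as 1 entry each. The list was chosen from results of these same libraries, and the comparison that led to it is not recorded. The values of the 10 genes are therefore given as a description, with fitted changes and standard errors but without p-values. RNA-seq had been done on group 2 innate lymphoid cells (ILC2s), which lack antigen receptors and secrete type 2 cytokines, sorted from the lamina propria (LP) of the gut, and on their precursors (ILC2p) sorted from bone marrow (BM). The 15 libraries asked how loss of TβR2, the receptor chain for TGF-β encoded by Tgfbr2, changes these cells.

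All donor mice were Tgfbr2f/fER-Cre+ on a C57BL/6 background and 8 to 12 weeks old, so WT mice also carried the floxed gene and the Cre. The WT mice received oil and the Tgfbr2-/- mice tamoxifen, 1 mg per day on 5 days, which activates the Cre recombinase in whichever cells carry it and not in ILC2s alone. Drug and genotype therefore cannot be told apart in any comparison of the genotypes. LP ILC2s (CD45+Lin-CD127+Sca-1+CD25+KLRG1+) came straight from treated mice, a day after the last dose. There were 4 WT libraries, 2 in each of 2 experiments, and 3 Tgfbr2-/- libraries, 2 in experiment 1 and 1 in experiment 2. ILC2p (CD45.2+Lin-CD127+α4β7+CD25+) came from mixed chimeras, 6 weeks after marrow of treated donors was transferred with CD45.1 marrow into irradiated hosts. There were 4 WT and 4 Tgfbr2-/- ILC2p libraries, 2 of each genotype per experiment. The experiments of ILC2s and ILC2p are separate, so cell type, tissue and experiment cannot be told apart. The hour at which mice were killed is not given in the sources used here. Nothing in the labels says that replicates came from separate mice, so the spread between them may be technical.

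The clock is a feedback loop of transcription that runs in nearly every cell with a period of about a day. CLOCK and ARNTL (BMAL1) form a dimer that binds E-boxes and turns on the Per and Cry genes, whose proteins return to block it. The same dimer turns on Nr1d1 and Nr1d2, whose proteins REV-ERBα and REV-ERBβ repress Arntl at ROR elements, and Dbp, whose protein activates genes through D-boxes. In a rhythmic tissue Arntl therefore peaks at about the time when Nr1d1 and Dbp are lowest. A level measured at a fixed hour mixes the strength of the loop with its phase, and bulk RNA mixes both with the share of cells that run it.

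In the GENCODE annotation of NCBIM37 (mm9) Nr1d1 lies on chr11:98629246-98636647 (minus strand) and shares 1075 bases with Thra, which encodes a thyroid hormone receptor on the other strand. Dbp lies on chr7:52960458-52965525 (plus strand) and shares 689 bases with Sphk2, which encodes a sphingosine kinase. Cry2, on chr2:92243803-92274200 (minus strand), shares 23417 bases with the noncoding gene D930015M05Rik. The authors left regions shared by differently named genes out of the counts, and no source used here states whether strand was kept. Among the other members, Per1 lies on chr11:68908719-68923462 and Arntl on chr7:120350979-120457636, both on the plus strand. Per3 lies on chr4:150377761-150418774, Per2 on chr1:93312561-93355907 and Clock on chr5:76639992-76733817, all on the minus strand. Cry1 lies on chr10:84594447-84647799 and Nr1d2 on chr14:19036568-19071641, also on the minus strand.

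Promoter windows of 300 bases around the annotated start were taken from RefSeq (GRCm38.p6), where 9 of the 10 genes have at least 1 window and 13 windows in all. The stretches below were chosen because each holds the letters of an element through which the loop acts, with the match in capitals, 5′ to 3′ on the gene's strand, and the distance of its first base from the start site. Searched on both strands, the E-box CACGTG lies in the windows of Per1 and Cry1 and in 7.15% of all 32851 windows. The variant CACGTT lies in those of Nr1d1, Cry1 and Cry2 and in 4.68% of all windows, and appears here on the other strand. For Cry1 it lies at -79, in lower case within the stretch shown for its E-box.
Per1 (chr11:69098758-69098813, match at -166): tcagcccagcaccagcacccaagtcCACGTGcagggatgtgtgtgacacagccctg
Cry1 (chr10:85185084-85185139, match at -60): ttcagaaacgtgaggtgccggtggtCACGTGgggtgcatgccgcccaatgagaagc
Nr1d1 (chr11:98775375-98775430, match at -28): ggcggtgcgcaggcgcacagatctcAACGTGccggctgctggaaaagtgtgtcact
Cry2 (chr2:92434205-92434260, match at -166): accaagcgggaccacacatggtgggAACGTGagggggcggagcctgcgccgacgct
The D-box letters TTATGTAA or TTACGTAA lie in 1.06% of all windows and, among these genes, in that of Per3, where they occur at -205 and at -158.
Per3 (chr4:151044838-151044895): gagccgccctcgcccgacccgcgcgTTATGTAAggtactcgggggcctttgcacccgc
Per3 (chr4:151044791-151044848): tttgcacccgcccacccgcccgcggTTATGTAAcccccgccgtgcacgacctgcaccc
The hexamer AGGTCA, the core of the element that REV-ERB and ROR proteins bind, lies in 16.3% of all windows and in those of Arntl, Clock, Per1 and Nr1d2.
Arntl (chr7:113207517-113207560, match at 31): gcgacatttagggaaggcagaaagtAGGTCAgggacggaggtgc
Nr1d2 (chr14:18239153-18239208, match at -77): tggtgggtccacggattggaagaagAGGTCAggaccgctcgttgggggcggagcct
No letter string contains another. A match describes the letters in this window and is not evidence of a bound site.

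The 7 ILC2 libraries held 12167066 to 32114265 counts (median 20983448) and the 8 ILC2p libraries 10957021 to 35961215 (median 20102800). The ILC2 libraries held all 11 ILC2 markers at 1 CPM (counts scaled to library size with TMM factors) or more, and their summed level lay between 5918 and 9362 CPM, with Gata3 the most abundant. Tgfbr2 itself, counted over whole transcripts and not over the deleted exon, did not separate the genotypes. In ILC2s it was at 172, 262, 147 and 206 CPM for the WT libraries and at 206, 184 and 96.1 CPM in those labelled Tgfbr2-/- (log2 fold change -0.46 ± 0.24, SE, adjusted p = 0.898). In ILC2p it ranged from 0.714 to 233 CPM for WT and from 30.8 to 218 CPM for Tgfbr2-/- (log2 fold change -0.21 ± 1.21, adjusted p = 0.989). The WT library at 0.714 CPM thus lay below every library labelled Tgfbr2-/-.

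The ILC2p libraries stood apart in their markers and in how many genes they detected. The 9 neutrophil markers found summed to between 787 and 1552 CPM in the 4 WT libraries and to between 75858 and 90929 CPM in the 4 labelled Tgfbr2-/-, where S100a8 alone was at 23770 to 29562 CPM. The 7 ILC2 libraries were at 3.98 CPM or less. The 4 macrophage and monocyte markers (Lyz2 the most abundant over all libraries) summed to at most 78.6 CPM among WT and at least 11160 CPM among Tgfbr2-/- ILC2p. Of these, Lyz2 (at most 68.9 and at least 10860 CPM) and Cd68 (at most 17.0 and at least 71.0 CPM) separated the genotypes. Csf1r (0.364 to 8.03 and 0.619 to 290 CPM) and Emr1 (0 to 13.9 and 0 to 92.9 CPM) overlapped. The 4 mast cell and basophil markers (Prss34) summed to at most 297 and at least 1121 CPM. That difference lay in the basophil genes Prss34 and Mcpt8, while the mast cell gene Cpa3 overlapped (107.5 to 295 and 133 to 234 CPM) and Ms4a2 was at or near 0 in all 8 libraries. ILC2 markers summed to 6081 CPM or more in WT and to 3769 CPM or less in Tgfbr2-/- ILC2p, with Gata3 at 869 to 1939 CPM in the latter. Gata3, Il7r, Il2ra, Il1rl1, Ly6a, Icos and Areg separated the genotypes. Klrg1 (76.4 to 174 and 70.1 to 155 CPM) and Rora (382 to 551 and 86.8 to 413 CPM) overlapped. So did the low Il5 (0 to 9.60 and 0 to 56.9 CPM) and Il13 (0 to 0.921 and 0 to 5.76 CPM). The lineage gate of the study removed cells stained for CD11b, CD11c or Gr-1, which neutrophils and most macrophages carry, so the source of these transcripts is not given by the sort. Their part in the clock gene values was not tested. In bulk RNA fewer cells of a type and less RNA per cell cannot be told apart.

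Many genes were also undetected in some ILC2p libraries. Among genes with a median of 10 CPM or more in the other libraries of the same cell type, the share under 1 CPM was at most 6.78% in each ILC2 library. It reached 27.3% in WT replicate 1 of experiment 1, 24.8% and 26.8% in both Tgfbr2-/- libraries of experiment 1 and 19.2% in Tgfbr2-/- replicate 2 of experiment 2. Of the clock gene values, 20 of 80 in ILC2p were under 1 CPM (15 of 40 in Tgfbr2-/- and 5 of 40 in WT) and none of 70 in ILC2s. The 4 libraries with the most undetected genes were the ones with the most undetected clock genes, as the plot of undetected genes shows.

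**Figure D1:**
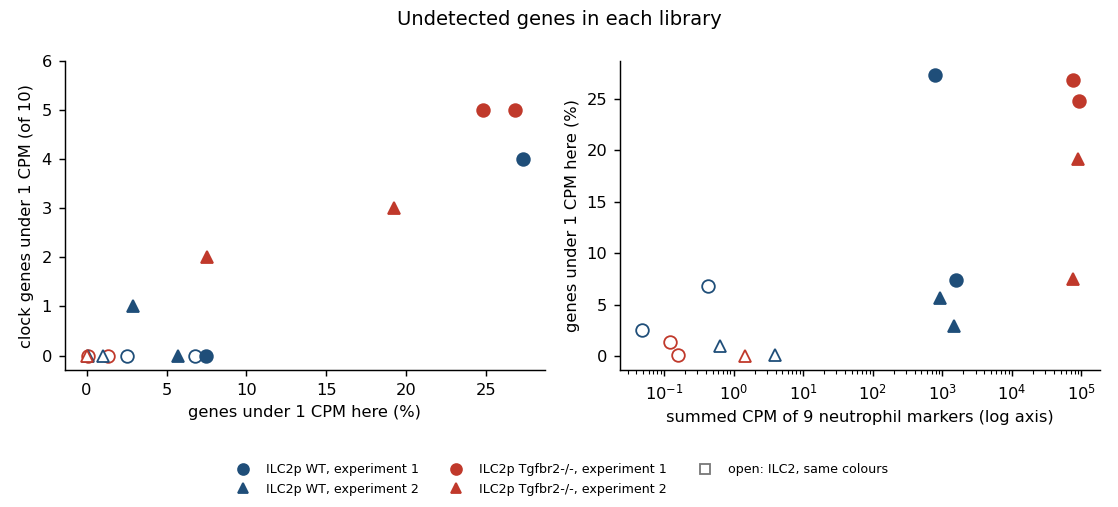
Each point is a library, with filled symbols for ILC2p and open ones for ILC2s, blue for WT and red for Tgfbr2-/-, circles for experiment 1 and triangles for experiment 2. The left panel sets the number of clock genes under 1 CPM against the share of genes (median of 10 CPM or more in the other libraries of the cell type) that are under 1 CPM, and the right panel sets that share against the summed CPM of 9 neutrophil markers on a log axis; 4 ILC2p libraries lie at 19.2% or more, 3 of them Tgfbr2-/-.

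Per length, Per1 was the highest of the 10 genes in ILC2s. Its deposited RPKM (reads scaled to transcript length and library size) averaged 117 ± 40.0 (SD, n = 4) in WT and 109.7 ± 31.3 (n = 3) in Tgfbr2-/- libraries. Nr1d1 (73.9 ± 37.7 RPKM in WT) and Dbp (70.4 ± 24.7 RPKM) followed, and these 3 did not differ beyond their spread. Nr1d2 (27.8 ± 11.1 RPKM), Arntl (19.9 ± 6.30), Cry1 (18.7 ± 8.40), Cry2 (13.6 ± 11.1) and Per3 (9.69 ± 3.82) formed a middle range in which no neighbours lay more than 1 SD each apart. Per2 (3.34 ± 2.43 RPKM) and Clock (2.14 ± 1.67 RPKM) were the lowest. Of the activating dimer, Arntl was thus the more abundant transcript per length and Clock the less abundant.

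In WT ILC2p, Per1, Nr1d1 and Dbp again had the highest means, while Cry2 was the lowest at 2.90 ± 1.74 RPKM. Per1 was at 57.1 ± 15.2 RPKM, Nr1d1 at 48.1 ± 30.4, Dbp at 40.9 ± 36.0 and Arntl at 38.9 ± 25.5 RPKM (SD, n = 4), and no gene lay more than 1 SD each above the next. In Tgfbr2-/- ILC2p, Nr1d1 (42.6 ± 22.9 RPKM) and Per1 (34.5 ± 28.1 RPKM) were the highest, while Arntl was at 3.11 ± 3.23, Clock at 0.185 ± 0.338 and Per2 at 0.0284 ± 0.0174 RPKM (n = 4).

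**Figure D2:**
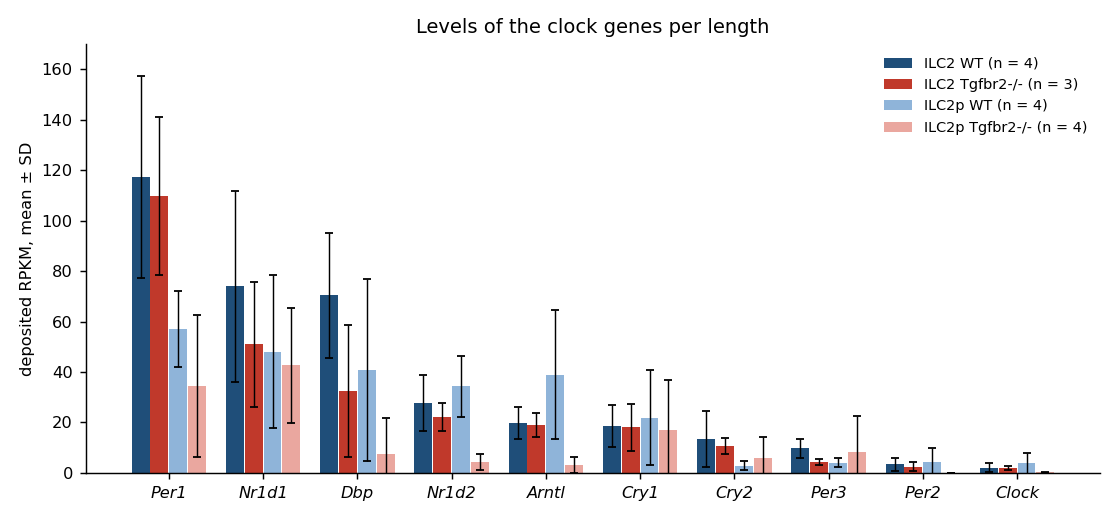
Mean deposited RPKM of each clock gene in the 4 groups, with bars for 1 SD over the libraries (n = 4, 3, 4 and 4), cut at 0, and genes ordered by their mean in WT ILC2s. Per1, Nr1d1 and Dbp stand highest in WT ILC2s, at 117, 73.9 and 70.4 RPKM, and Per2 and Clock lowest.

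In LP ILC2s, Nr1d1, Dbp and Per3 were lower in each Tgfbr2-/- library than in the WT libraries of the same experiment, with fitted log2 fold changes of -0.82, -1.49 and -1.31, but no change was called. A gene was called at a Benjamini-Hochberg adjusted p under 0.1 in edgeR's quasi-likelihood test and a fold change over 1.5, the thresholds of the study's methods, with the experiment as a covariate. None of the 10 clock genes was called, and neither was any of the 11981 genes tested (0%), of which 557 had an unadjusted p under 0.05. DESeq2 called Nr1d1, Dbp and Per3 among 338 genes (2.82%). The 10 log2 fold changes had a median of -0.25, and 9 were below 0, beside a median of -0.01 over all genes.

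Nr1d1, the gene of REV-ERBα, was at 287 and 290.3 CPM for the WT libraries of experiment 1 and at 182 and 141 CPM for the Tgfbr2-/- libraries. In experiment 2 it was at 101 and 94.0 CPM for WT and 59.3 CPM for Tgfbr2-/-. Each Tgfbr2-/- value lay below both WT values of its own experiment, with a fitted log2 fold change of -0.82 ± 0.18 (SE). Across experiments the order turned, since both Tgfbr2-/- values of experiment 1 lay above both WT values of experiment 2. Over the 17 alternative fits the change stayed between -0.89 and -0.64.

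Dbp, the activator of D-box genes, was at 86.8 and 107 CPM for WT and at 63.1 and 22.6 CPM for Tgfbr2-/- ILC2s of experiment 1. In experiment 2 it was at 67.5 and 36.9 CPM for WT and 13.8 CPM for Tgfbr2-/- ILC2s (log2 fold change -1.49 ± 0.44). Here too each Tgfbr2-/- value lay below both WT values of the same experiment. Per3, the period gene whose promoter window holds the D-box letters shown above, was at 42.0 and 78.9 CPM for WT and 30.9 and 19.96 CPM for Tgfbr2-/- of experiment 1. In experiment 2 it was at 30.3 and 61.8 CPM against 18.1 CPM (log2 fold change -1.31 ± 0.41). Nr1d1, Dbp and Per3 were the 3 of 10 members below WT in both experiments, beside 5.37% of the 11924 genes with a mean of 1 CPM or more. No member was above WT in both, beside 6.79%. The summed level of 6 epithelial markers had the opposite order in the same libraries, at 6.59 and 15.7 CPM for WT against 39.3 and 33.8 CPM for Tgfbr2-/- in experiment 1 and at 215 and 395 CPM against 929 CPM in experiment 2. The share of undetected genes, defined above, was also lower in Tgfbr2-/- than in WT ILC2s within each experiment. In experiment 1 it was 6.78% and 2.55% for WT against 0.0875% and 1.36% for Tgfbr2-/-. In experiment 2 it was 0.112% and 1.01% for WT against 0% for Tgfbr2-/-. The part of these measures in the genotype values was not tested.

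For the other 7 clock genes the genotypes of ILC2s shared no order in both experiments. Arntl was at 31.6, 60.9, 53.4 and 62.5 CPM for the WT libraries and at 39.1, 46.9 and 59.3 CPM for the Tgfbr2-/- libraries (log2 fold change -0.07 ± 0.31). Per1, at -0.30 ± 0.19, and Nr1d2, at -0.29 ± 0.34, had small fitted changes. Cry1 (-0.17 ± 0.47) and Cry2 (-0.20 ± 0.47) had changes within their error. Clock (0.55 ± 0.78) and Per2 (-0.01 ± 1.06) were too variable for a direction. Clock ranged from 3.69 to 34.6 CPM and Per2 from 1.59 to 29.2 CPM among the 4 WT libraries alone.

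Of 23 further clock-associated genes, 21 were tested between ILC2 genotypes, none was called (15 below 0, median log2 fold change -0.20), and 3 had an unadjusted p under 0.05. Tef, which encodes a D-box activator related to DBP, was at 69.3, 105, 60.8 and 76.4 CPM for WT and at 45.8, 56.1 and 26.9 CPM for Tgfbr2-/- ILC2s, with all 3 below all 4 (-1.03 ± 0.28, adjusted p = 0.898). Ciart, which encodes a repressor of the CLOCK-ARNTL dimer, was at 33.7 and 56.2 CPM against 17.1 and 15.5 CPM in experiment 1 and at 9.52 and 9.81 CPM against 5.36 CPM in experiment 2 (-1.24 ± 0.48, adjusted p = 0.898). Nampt, which encodes an enzyme of NAD synthesis, was the 1 gene of the list higher in both, at 30.4, 23.6, 31.9 and 23.0 CPM for WT and at 38.3, 33.8 and 43.4 CPM for Tgfbr2-/- ILC2s (0.48 ± 0.35, adjusted p = 0.898). Without overlap in both experiments, 3 of 20 clock-associated genes with a mean of 1 CPM or more were lower and 1 higher. Over all 11924 genes at that level, 5.37% were lower and 6.79% higher. The third D-box activator, Hlf, had a change of -0.29 ± 0.40 (adjusted p = 0.946). Nfil3, the D-box repressor, was at -0.20 ± 0.22 (adjusted p = 0.923), Bhlhe40 at -0.02 ± 0.12 (adjusted p = 0.994) and Rora, an activator of Arntl that ILC2s need to develop, at -0.01 ± 0.18 (adjusted p = 0.996). Of their nearest relatives, Npas2 (-1.41 ± 1.38, adjusted p = 0.912) and Bhlhe41 (-1.01 ± 1.14, adjusted p = 0.926) varied widely. DESeq2 called Tef among these genes.

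**Figure D3:**
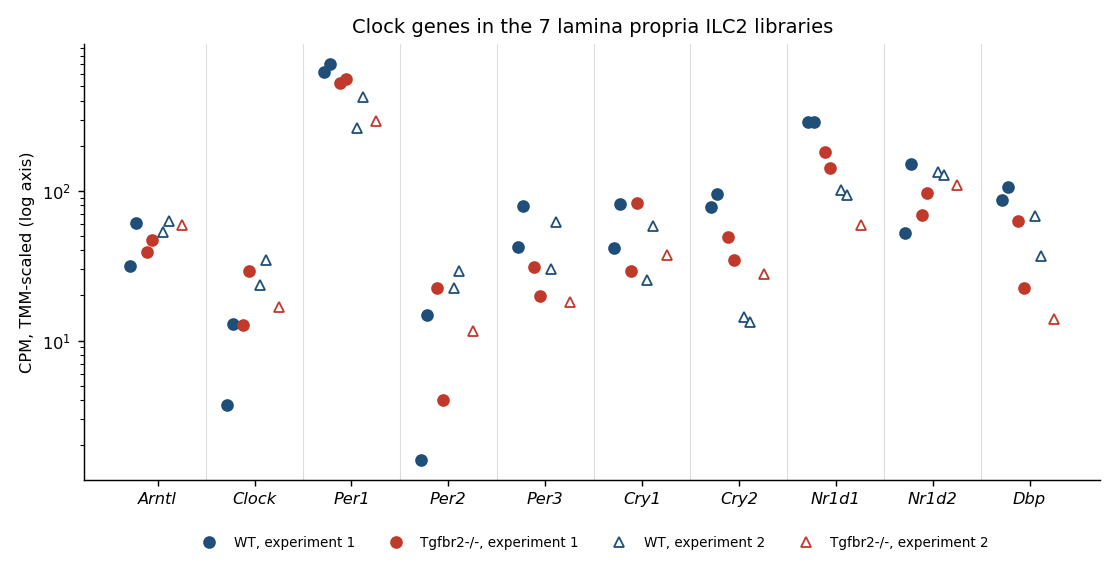
CPM (TMM-scaled, log axis) of each clock gene in the 7 LP ILC2 libraries, in blue for WT and red for Tgfbr2-/-, with filled circles for experiment 1 and open triangles for experiment 2. Nr1d1 falls into 4 separate steps, from 287 and 290.3 CPM for WT of experiment 1 to 59.3 CPM for Tgfbr2-/- of experiment 2, while Arntl stays between 31.6 and 62.5 CPM.

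Nr1d1 and Per1 were lower in experiment 2 than in experiment 1 of ILC2s. With the genotype as a covariate, 117 of 11981 genes were called between experiments (0.977%), 83 of them lower in experiment 2 (0.693%). Nr1d1 and Per1 were 2 of these 83, with log2 fold changes of -1.54 ± 0.18 and -0.95 ± 0.19 (SE). Both calls ended when any 1 of the 7 libraries was left out, when between 0 and 10 of all genes were called, while their log2 fold changes stayed from -1.62 to -1.47 and from -1.10 to -0.76. DESeq2 called Nr1d1, Per1, Cry2 and Dbp among 1347 genes (11.2%).

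All 3 Nr1d1 values of experiment 2 (59.3 to 101 CPM) lay below all 4 of experiment 1 (141 to 290.3 CPM), also within each genotype. Per1, which responds to glucocorticoids and cAMP besides the clock, was at 628 and 707 CPM for WT and 525 and 563 CPM for Tgfbr2-/- libraries of experiment 1. In experiment 2 it was at 262 and 427 CPM for WT and 292 CPM for Tgfbr2-/-, again without overlap. Cry2, a repressor of the dimer, was at 77.6 and 95.2 CPM for WT and 49.1 and 34.4 CPM for Tgfbr2-/- of experiment 1, and at 14.3, 13.2 and 28.0 CPM in experiment 2 (-1.77 ± 0.49). Its genotypes were thus in the opposite order in the 2 experiments. These 3 of 10 members were lower in experiment 2 without overlap, beside 8.84% of all genes, and no member was higher without overlap, beside 8.25%.

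Dbp was also lower in experiment 2 (-1.19 ± 0.44), with overlap, since WT replicate 1 of experiment 2 lay above both Tgfbr2-/- libraries of experiment 1. Per3 (-0.45 ± 0.40) and Cry1 (-0.59 ± 0.47) had changes near their error. Arntl (0.37 ± 0.30), Clock (1.04 ± 0.78), Nr1d2 (0.37 ± 0.34) and Per2 (0.98 ± 1.02) had fitted changes above 0, none called. Nr1d2, the paralog of Nr1d1, was at 52.5 and 151 CPM for WT of experiment 1 and at 133 and 128 CPM for WT of experiment 2, and at 69.3 and 97.5 against 109 CPM for Tgfbr2-/-. The 10 members had a median log2 fold change of -0.52 by experiment, beside -0.0016 over all genes.

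The level of Nr1d1 relative to Arntl in the same library, a ratio chosen after the values were seen, was 9.08 and 4.77 in WT and 4.66 and 3.02 in Tgfbr2-/- ILC2s of experiment 1. In experiment 2 it was 1.88 and 1.503 for WT and 1 in Tgfbr2-/-. It was lower in Tgfbr2-/- than in WT within each experiment and lower in experiment 2 within each genotype. In ILC2p it was higher in Tgfbr2-/- (4.84 or more) than in WT libraries (4.38 or less). Its denominator Arntl was lower in all 4 of those Tgfbr2-/- libraries, with 8 counts in 1 of them, while Nr1d1 overlapped, and the neutrophil markers separate the same groups. The ratio is of CPM and not per length, so only its differences between libraries can be read.

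Among the 21 clock-associated genes tested, Usp2 was called by experiment (-2.87 ± 0.57, adjusted p = 0.098). Usp2, a deubiquitinase gene with rhythmic expression, was at 21.1, 42.4, 26.3 and 78.6 CPM in experiment 1 and at 3.82, 4.59 and 7.68 CPM in experiment 2. Its call also ended when any 1 library was left out. Ciart (-1.98 ± 0.49, adjusted p = 0.135), Wee1 (-1.49 ± 0.47, adjusted p = 0.217) and Nfil3 (-0.92 ± 0.22, adjusted p = 0.131) were not called. In the other direction, Csnk2a1, which encodes a casein kinase 2 subunit, was at 63.4 to 87.9 CPM in experiment 1 and at 123 to 148 CPM in experiment 2 (0.84 ± 0.22, adjusted p = 0.146). Timeless was at 0.234 to 10.2 CPM and at 10.9 to 26.5 CPM (3.14 ± 1.61, adjusted p = 0.452). Of the 20 clock-associated genes with a mean of 1 CPM or more, 7 were lower and 2 higher in experiment 2 without overlap. Over all 11924 genes at that level, 8.84% were lower and 8.25% higher. The median of the 21 was -0.26. Tef had a log2 fold change of -0.58 ± 0.28 (adjusted p = 0.419), Rora of -0.17 ± 0.18 (adjusted p = 0.724) and Bhlhe40 of -0.14 ± 0.12 (adjusted p = 0.677). The genes that overlap members were at -1.86 ± 0.43 for Sphk2 (adjusted p = 0.129), the neighbour of Dbp, and at 0.12 ± 1.20 for Thra (adjusted p = 0.978), the neighbour of Nr1d1.

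**Figure D4:**
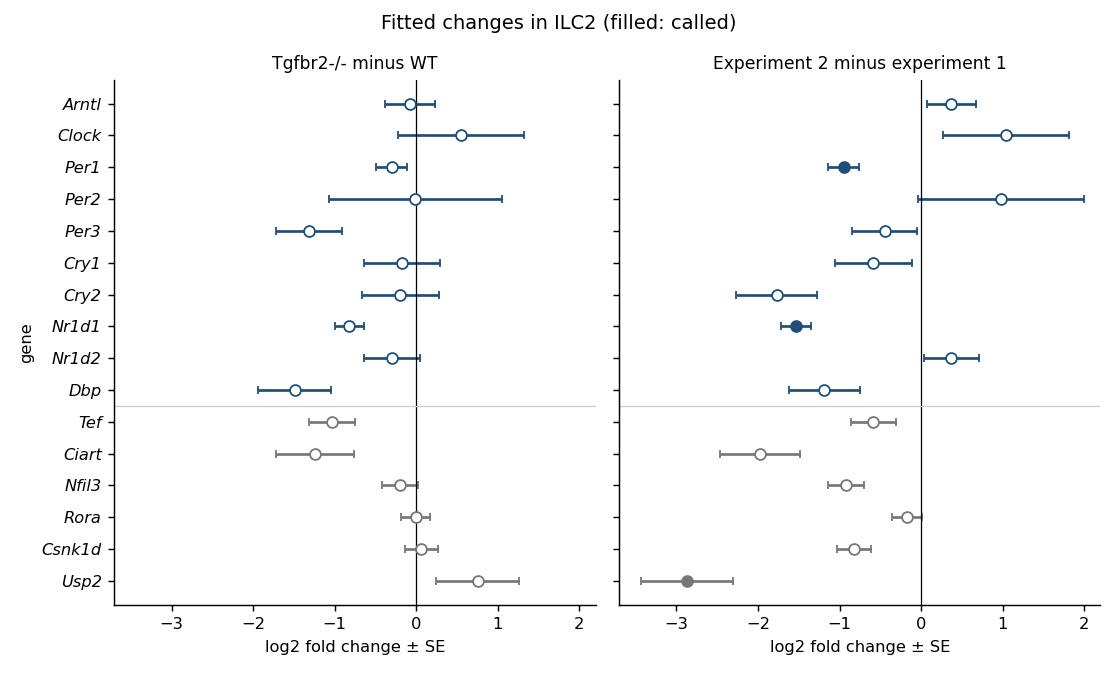
Log2 fold changes ± SE from edgeR in ILC2s, Tgfbr2-/- minus WT on the left and experiment 2 minus experiment 1 on the right, for the 10 clock genes (blue) and 6 clock-associated genes (grey), with called genes filled. Dbp, Per3, Tef and Ciart lie at -1.49, -1.31, -1.03 and -1.24 by genotype, none called, and Nr1d1, Per1 and Usp2 are called by experiment.

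Other measures moved with the experiment in ILC2s. The summed ILC2 markers lay between 5918 and 7920 CPM in experiment 1 and between 8524 and 9362 CPM in experiment 2. Gata3, the most abundant of them, was at 2274 to 3580 CPM in experiment 1 and at 4197 to 4683 CPM in experiment 2. The 6 epithelial markers, whose sum also followed the genotype within each experiment, summed to at most 39.3 CPM in experiment 1 and to at least 215 CPM in experiment 2. Krt8, the most abundant over all libraries, was at 10.4 CPM or less and at 33.3 CPM or more. The 7 dissociation and stress markers, with Junb the most abundant, summed to between 35814 and 48713 CPM in experiment 1 and to between 31405 and 32937 CPM in experiment 2. The 5 T cell markers found (34.3 to 134 CPM in sum, Cd3g most abundant) and the 4 B cell markers (45.7 to 84.6 CPM, Cd79b) overlapped between the experiments. Total counts were 20983448 or more in experiment 1 and 15823862 or less in experiment 2. The part of these measures, and of the hour of sampling, in the differences between experiments was not tested.

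The genes most like Nr1d1 over the 7 ILC2 libraries, by Pearson's r of log2(CPM + 1) among 8286 genes with a mean of 10 CPM or more, were Zfp36l1 (0.978), Mcm3ap (0.977) and Desi2 (0.976). Ciart had an r of 0.969 with Nr1d1, Dbp 0.802 and Arntl -0.553, while Nr1d2 had an r of 0.95 with Arntl. For Dbp the nearest genes were Ccdc107 (0.979), Tomm6 (0.967) and Clec16a (0.935), and for Arntl Abracl (0.983), Tank (0.978) and Denr (0.974). With 7 libraries that share 2 experiments, such values are a description only. Over the 8 ILC2p libraries (8841 genes) the nearest were Cdk17 (0.991), 2310011J03Rik (0.983) and Abcb1b (0.976) for Nr1d1, Ccdc85b (0.990), Ipo4 (0.988) and Calcoco1 (0.986) for Dbp, and Zfp608 (0.978), Mdfic (0.972) and Ptp4a2 (0.969) for Arntl. None of these genes was in both cell types' sets. In ILC2p, Nr1d1 had an r of 0.0254 with Ciart, 0.651 with Dbp and -0.403 with Arntl, and Nr1d2 had 0.732 with Arntl.

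In ILC2p, Arntl and Nr1d2 were lower in all 4 libraries labelled Tgfbr2-/- than in all 4 WT libraries, with fitted log2 fold changes of -3.81 and -2.78, but were not called. Of the 9 members tested there (Per2 was filtered out) none was called, while 321 of 9242 genes were (3.47%). DESeq2 called Arntl, Clock and Nr1d2 among 1229 genes (13.3%). The median log2 fold change of the 9 genes was -2.27, beside -0.10 over all genes. That median is the value of Cry2, whose SE was 4.03 and whose change ran from -7.13 to 2.02 over the alternative settings. Arntl, Nr1d2 and Per2 were below WT in both experiments, 3 of 10 members beside 5.31% of 11500 genes with a mean of 1 CPM or more, and none was above in both (6.73%). For Per2 the order in experiment 1 rests on 2 counts in 1 WT library against 1 count in each Tgfbr2-/- library.

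Arntl was at 212 and 63.7 CPM for WT and at 6.15 and 0.83 CPM for Tgfbr2-/- ILC2p of experiment 1. In experiment 2 it was at 106 and 35.3 CPM for WT and at 21.7 and 7.66 CPM for Tgfbr2-/- (log2 fold change -3.81 ± 1.34). All 4 Tgfbr2-/- values lay below all 4 WT values. Nr1d2 was at 80.8, 169.5, 157 and 147 CPM for WT and at 39.3, 12.1, 28.9 and 3.17 CPM for Tgfbr2-/- ILC2p (-2.78 ± 0.96), also without overlap. Nr1d2 was above 1 CPM in all 8 libraries, and Arntl in all but Tgfbr2-/- replicate 2 of experiment 1. Over the alternative fits the log2 fold change ran from -5.32 to -2.33 for Arntl and from -3.39 to -2.32 for Nr1d2.

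Clock was at 0, 9.30, 77.0 and 41.4 CPM for WT and at 0.0991, 0, 6.37 and 0.464 CPM for Tgfbr2-/- ILC2p (-5.13 ± 2.26), and WT replicate 1 of experiment 1, at 0 counts, overlapped the Tgfbr2-/- libraries. Per2 was at 0.178, 25.8, 61.8 and 0.994 CPM (2, 444, 2185 and 41 counts) for WT and had 1, 1, 7 and 5 counts in the Tgfbr2-/- libraries. Dbp was at 0, 45.0, 87.7 and 27.7 CPM for WT and at 0.0991, 0.207, 0.382 and 39.5 CPM for Tgfbr2-/- ILC2p (-4.26 ± 2.91). For each of these genes at least 1 WT library lay within the range of the Tgfbr2-/- libraries. With 1 library left out the log2 fold change ran from -6.69 to -2.90 for Clock and from -7.17 to -0.47 for Dbp.

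Nr1d1 and Per1 overlapped between the genotypes of ILC2p. Nr1d1 was at 9.55, 127, 160.0 and 155 CPM for WT and at 44.8, 132, 105 and 232 CPM for Tgfbr2-/- ILC2p (log2 fold change 0.21 ± 0.81). Per1 was at 199.5, 185, 300.4 and 252 CPM for WT and at 9.52, 314, 220.0 and 119.6 CPM for Tgfbr2-/- (-0.49 ± 0.82). Per3 (-0.03 ± 2.09), Cry1 (0.23 ± 1.92) and Cry2 (-2.27 ± 4.03) had errors too wide for a direction. Per3 ranged from 0.155 to 187 CPM among the 4 Tgfbr2-/- libraries, Cry1 from 0.595 to 135 CPM and Cry2 from 0 to 66.6 CPM.

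**Figure D5:**
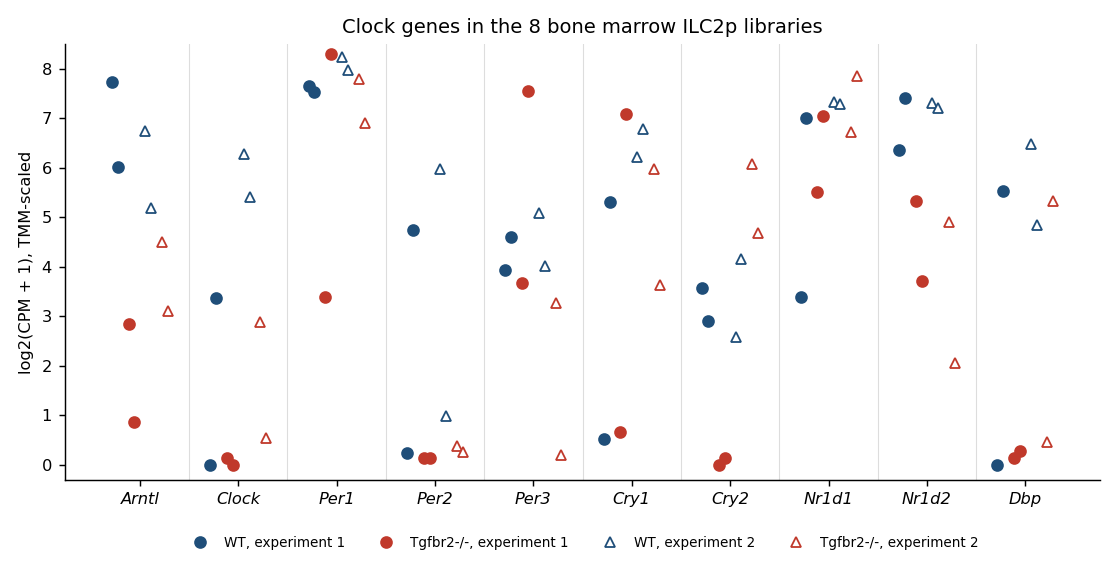
Log2(CPM + 1) of each clock gene in the 8 BM ILC2p libraries, in blue for WT and red for Tgfbr2-/-, with filled circles for experiment 1 and open triangles for experiment 2; a value of 0 is no count. Arntl and Nr1d2 separate the genotypes without overlap, Nr1d1 and Per1 overlap, and Clock, Per2, Cry2 and Dbp each have libraries near 0.

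Of the 23 clock-associated genes, 17 were tested in ILC2p and Csnk1d, which encodes a kinase of the PER proteins, was called. It fell by 1.98 on the log2 scale (SE 0.43, adjusted p = 0.0529), from 221, 249, 432 and 279.5 CPM for WT to 81.6, 79.1, 65.4 and 75.2 CPM for Tgfbr2-/-. The call was lost without WT replicate 2 of experiment 1 or without any 1 of the 4 libraries of experiment 2, and it was not made within either experiment alone. With no filter on low counts Csnk1d was not called and Bhlhe40 was. The median of the 17 was -1.42, the value of a gene whose SE was 2.41. Rora was at 420.2, 434, 551 and 382 CPM for WT and at 122, 413, 86.8 and 269 CPM for Tgfbr2-/- ILC2p (-1.06 ± 0.51, adjusted p = 0.594). Tef (-2.65 ± 1.76, adjusted p = 0.799), Hlf (-5.23 ± 2.58, adjusted p = 0.629) and Bhlhe40 (-1.94 ± 1.14, adjusted p = 0.748) were not called. Fbxw11, which encodes a ubiquitin ligase subunit for the PER proteins, was higher in Tgfbr2-/- ILC2p of both experiments (1.48 ± 1.11, adjusted p = 0.853). It was 1 of 21 clock-associated genes, while 4 of 21 were lower in both. Over all 11500 genes with a mean of 1 CPM or more, 6.73% were higher and 5.31% lower in both. The summed neutrophil and macrophage markers and the basophil genes Prss34 and Mcpt8 separate the same 2 groups of libraries, as do the 7 stress markers (40819 to 63249 CPM in sum for WT and 19097 to 31336 CPM for Tgfbr2-/- ILC2p), and their part in these values was not tested.

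Between the experiments of ILC2p none of the 9 members tested was called, and none of 9242 genes (0%), of which 288 had an unadjusted p under 0.05. DESeq2 called 397 genes (4.3%) and no member. Nr1d1 had a log2 fold change of 1.01 ± 0.82 and Per1 of 0.24 ± 0.82, against the -1.54 and -0.95 between the separate experiments of ILC2s, and the experiments of ILC2s and ILC2p are separate.

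Between the cell types, no member was called in WT, where 302 of 12806 genes were (2.36%). Their median log2 difference, ILC2s minus ILC2p, was 0.34, beside -0.02 over all genes. Per1 was at 1.12 ± 0.64, Arntl was at -0.99 ± 0.81 and Nr1d1 at 0.78 ± 0.72. Rora was called (1.86 ± 0.38, adjusted p = 0.0215), with 1411 to 1810 CPM in the 4 WT ILC2 and 382 to 551 CPM in the 4 WT ILC2p libraries.

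Between the Tgfbr2-/- groups, 1492 genes were called (11.7%), 1051 of them higher in ILC2s (8.21%). Of the members Nr1d2 (2.14 ± 0.69) and Per2 (6.11 ± 1.79) were called, both higher in ILC2s, and their direction held in all alternative fits that kept them. The number of members called ran from 0 to 4 with single libraries left out, 0 without Tgfbr2-/- ILC2 replicate 1 of either experiment and 4 without Tgfbr2-/- ILC2p replicate 1 of experiment 2. It was 1 without Tgfbr2-/- ILC2 replicate 2 of experiment 1, WT ILC2 replicate 1 of experiment 2 or either Tgfbr2-/- ILC2p library of experiment 1. The calls over all genes moved as well. They were 650 of 13439 and 778 of 13273 where no member was called, and 1904 of 12607 where 4 were. Where 1 member was called they ran from 596 to 1307. The fitted size for Per2 rests on the 1, 1, 7 and 5 counts of the ILC2p side. DESeq2 called Arntl, Nr1d2 and Per2 among 2529 genes (19.7%). The clock-associated genes called, all higher in ILC2s, were Rora (2.91 ± 0.40, adjusted p = 0.000429), Csnk1d (1.71 ± 0.38, adjusted p = 0.0167), Bhlhe40 (2.76 ± 0.92, adjusted p = 0.0847) and Timeless (5.90 ± 2.07, adjusted p = 0.0998). With 1 library left out, Timeless stayed called only without WT ILC2 or WT ILC2p replicate 1 of experiment 1. Timeless had 3 counts or fewer in 3 of the 4 Tgfbr2-/- ILC2p libraries. The Bhlhe40 call was lost without any 1 Tgfbr2-/- ILC2 library or without Tgfbr2-/- ILC2p replicate 1 of either experiment. It was also lost without WT ILC2 replicate 2 of experiment 1 or replicate 1 of experiment 2, and DESeq2 did not call Bhlhe40. This comparison shares its ILC2p libraries with the genotype comparison in ILC2p, and the neutrophil markers separate its groups as well.

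The genotype effects of the cell types were compared as an interaction term, where 127 of 12806 genes were called (0.992%) and none of the 10 members. DESeq2 called Arntl, Clock and Per2 among 1518 (11.9%). The difference, the effect in ILC2s minus that in ILC2p, was 3.72 ± 1.35 for Arntl, 2.48 ± 1.00 for Nr1d2 and 5.63 ± 2.36 for Clock, and -1.02 ± 0.91 for Nr1d1 and 2.65 ± 2.80 for Dbp. Csnk1d was the clock-associated gene called (2.04 ± 0.46, adjusted p = 0.0766), with fitted effects of 0.07 ± 0.20 in ILC2s and -1.98 ± 0.43 in ILC2p. This call was lost without any 1 of the 7 ILC2 libraries or either WT ILC2p library of experiment 2. All genes had a median difference of 0.31 here.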

How the data were processed

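The authors mapped reads to mm9 with TopHat (per the labels, Bowtie2), retained reads with several hits, and obtained counts over full transcripts of UCSC RefSeq genes with rpkmforgenes, leaving out regions shared by differently named genes. For each library they deposited RPKM and raw counts. Each file has 24690 entries for 24089 symbols. Strand is not stated in the sources used here.

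The members and gene lists were chosen with earlier results of these data known. Groups were taken from the labels. Counts were tested with edgeR 4.0.16 in R 4.3.3 (TMM, filterByExpr, quasi-likelihood, Benjamini-Hochberg over all genes kept). Standard errors are the log2 fold change over the root of F. Levels are CPM with TMM factors over all 15 libraries, and genes were compared with each other by deposited RPKM. Genes named were the members, Tgfbr2, the overlapping Thra and Sphk2 (Sphk2 chosen after its values were seen), clock-associated genes called or nearest relatives of a member, the 3 genes most like Nr1d1, Dbp and Arntl, and the top gene of each marker list. Wee1, Csnk2a1, Nampt, Fbxw11 and the macrophage, basophil and mast cell genes other than Lyz2 and Prss34 were named after their values were seen. So were the ILC2 marker genes other than Gata3 and Rora, and the epithelial genes other than Krt8. The values of some clock-associated genes are not reported here.

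The same counts were refitted with DESeq2 1.42.0, and limma 3.58.1 was run on log2(RPKM + 1) and log2(RPKM + 0.1). Further settings were library size and upper quartile scaling, no filter, a minimum of 10 counts per library, a replicate block, leaving the experiment out of the model, each experiment alone and each library left out. The fits were tested on simulated data. Replicate numbers did not pair the libraries (correlations of -0.06, -0.01 and -0.04 over 8919 genes between same-numbered deviations). Positions are from GENCODE (NCBIM37). Python 3.11.15 was used.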

Additional observations from a re-analysis of the deposited data

Results flagged for a closer look

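In ILC2p, 3 values stood far from the other libraries of their group of 4 by Dixon's criterion at 95%. For normally distributed values chance meets it in about 1 in 20 groups, and 30 groups of values were examined. With many values near 0, that rate may not hold here. Clock was at 6.37 CPM in Tgfbr2-/- replicate 1 of experiment 2, while the others of that group were at 0.464 CPM or less. Per3 was at 187 CPM in Tgfbr2-/- replicate 2 of experiment 1, beside 11.7 CPM or less in the others. Dbp was at 39.5 CPM in Tgfbr2-/- replicate 2 of experiment 2, beside 0.382 CPM or less in the others. All 3 lay in the Tgfbr2-/- ILC2p group, in which 15 of 40 clock gene values were under 1 CPM.

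The genotype effect on Csnk1d differed between the cell types by an interaction term of 2.04 on the log2 scale (SE 0.46, adjusted p = 0.0766, edgeR). All 4 Tgfbr2-/- ILC2p libraries lay below all 4 WT ones, while the ILC2 genotypes overlapped. The call was lost without any 1 of the 7 ILC2 libraries or either WT ILC2p library of experiment 2. No filter or a replicate block also ended it. The neutrophil markers separate the same ILC2p groups, and their part was not tested.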

How the results depend on the processing

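The number of clock genes called stayed at 0 between genotypes of ILC2s or ILC2p and for the interaction, except with DESeq2, which gave 3 in each. Between experiments of ILC2s the 2 calls became 4 with DESeq2 and 1 (Nr1d1) with either limma pseudocount, library size, upper quartile scaling or a minimum of 10 counts in every library, and ranged from 0 to 0 with 1 library left out. The calls over all genes were 1347 with DESeq2, 168 and 144 with limma, 23, 31 and 81 with the last 3 settings, against 117. Between Tgfbr2-/- cell types the 2 calls became 4 with limma on log2(RPKM + 0.1) or upper quartile scaling, 1 with no filter and 1 with at least 10 counts in every library, 3 without the 4 ILC2p libraries of experiment 1 (chosen after seeing the data), and 0 to 4 with 1 library left out. In that order, the calls over all genes were 2378 of 11805, 1848 of 12806, 988 of 17725, 412 of 3533 and 2244 of 13597. They were 596 to 1904 with 1 library left out, against 1492 of 12806 in the main fit. Between WT cell types and between ILC2p experiments it was 0 throughout.

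For the clock-associated genes, DESeq2 called 1 in ILC2 genotypes, 2 in ILC2p genotypes, 8 in ILC2 experiments and 2 in the interaction, against 0, 1, 1 and 1. In ILC2p genotypes no filter gave 1, Bhlhe40 in place of Csnk1d, each experiment alone gave 0, and leaving out 1 library 0 to 1. In ILC2 experiments limma on log2(RPKM + 1) and no filter gave 2, library size, upper quartile and at least 10 counts in every library 0, and leaving out 1 library 0 to 0. Between WT cell types limma on log2(RPKM + 1) and leaving out the 4 ILC2p libraries of experiment 1 gave 2 against 1. Between Tgfbr2-/- cell types limma on log2(RPKM + 0.1) gave 7 against 4 and leaving out 1 library 2 to 6. The interaction gave 0 with no filter and 0 to 1 with 1 library left out.

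With a replicate block, 0 clock genes were called in every genotype fit, clock-associated calls became 0 in ILC2p and in the interaction, and the calls over all genes went from 321 to 175 in ILC2p and from 127 to 18 in the interaction. The numbers do not pair the libraries.

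Of 1277 refitted log2 fold changes of the members, 1217 moved by less than 1 SD between replicates and none that was called reversed. Library size, upper quartile and DESeq2 scaling moved the median of all genes in ILC2p genotypes from -0.10 to between -0.40 and 0.03. With limma it was -0.42 on log2(RPKM + 1) and -0.57 on log2(RPKM + 0.1). In ILC2 experiments the median moved from -0.0016 to 0.20 with library size and to 0.23 with limma on log2(RPKM + 0.1). The cause of these changes was not tested. Counts of 3 or fewer limit Clock, Per2, Cry2 and Dbp in ILC2p. The 3 ILC2p libraries with the fewest counts (10957021, 11959679 and 12276824) had the highest shares of undetected genes (26.8%, 24.8% and 27.3%), the next was 19.2% at 31993992 counts, and the part of depth was not tested.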
